A study of Mus musculus with 6 samples.

Results

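The transcripts of 10 genes that write, copy, erase or shield DNA methylation were examined in primordial germ cells (PGCs), from which the gametes arise, sorted from E13.5 male mouse embryos. The genes were *Dnmt1*, *Uhrf1*, *Dnmt3a*, *Dnmt3b*, *Dnmt3l*, *Tet1*, *Tet2*, *Tet3*, *Tdg* and *Ctcfl*. They were picked by symbol from 24479 deposited rows, each of which is 1 Entrez gene, and all 10 were measured. Of all rows, 23837 carried a gene name and were tested.

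The samples labelled *Fancg*-/- came from *OG2:Fancg*-/- embryos, which lack a core protein of the Fanconi anemia DNA repair pathway and carry a *Pgk-hygromycin* cassette in the gene, and the WT samples came from *OG2:Fancg*+/+ embryos. All embryos were of the labelled og2.fvb background, were produced by mating heterozygotes, and carried the OG2 transgene, in which EGFP under *Oct4* control marks PGCs for flow sorting. There were 3 samples of each genotype, each of 10000 sorted cells pooled from at least 5 embryos, hybridised singly to Affymetrix Mouse Gene 2.0 ST arrays after amplification. A pool hides the spread between embryos, and in a pool, fewer cells of a type and less RNA per cell cannot be told apart. The deposited values are RMA log2 signals, so a difference of 1 is a doubling, and all differences below are *Fancg*-/- minus WT.

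DNA methylation in mammals sits mainly on cytosines followed by guanine (CpG). DNMT1, guided by UHRF1 to hemimethylated DNA behind the replication fork, copies it at each division, while DNMT3A and DNMT3B, with the inactive cofactor DNMT3L, lay it down anew. TET enzymes oxidise 5-methylcytosine, TDG removes the later oxidation products for base excision repair, and CTCFL (BORIS) is the germline paralog of the insulator protein CTCF. Mouse PGCs lose nearly all DNA methylation by about the stage studied here, with little UHRF1 in the nucleus, and male germ cells are remethylated later in fetal life. The arrays measured RNA only. Methylation, protein and protein location were not measured.

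The promoters of these genes differ widely in the substrate of the pathway, which is why the windows of 4 of them, and of *Sycp1*, a meiotic target of promoter methylation described further below, are shown. Each window is the RefSeq promoter of assembly GRCm38.p6 from 250 bases before to 50 bases after a transcription start, on the gene's own strand, with every CpG in capitals. *Uhrf1* (chr17:56304063-56304362, plus strand) and *Dnmt1* (chr9:20952574-20952873, minus strand) hold 33 CpG each. *Tet2* (chr3:133544341-133544640, minus strand) holds 57, *Tet1* (chr10:62887275-62887574, minus strand) 17 and *Sycp1* (chr3:102936051-102936350, minus strand) 21.
Uhrf1: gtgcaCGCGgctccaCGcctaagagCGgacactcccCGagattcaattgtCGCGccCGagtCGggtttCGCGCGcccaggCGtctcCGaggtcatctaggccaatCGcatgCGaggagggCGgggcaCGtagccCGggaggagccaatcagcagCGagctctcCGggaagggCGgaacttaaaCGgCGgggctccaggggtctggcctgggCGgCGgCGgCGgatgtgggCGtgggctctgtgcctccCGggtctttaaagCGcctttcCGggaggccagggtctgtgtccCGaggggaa
Dnmt1: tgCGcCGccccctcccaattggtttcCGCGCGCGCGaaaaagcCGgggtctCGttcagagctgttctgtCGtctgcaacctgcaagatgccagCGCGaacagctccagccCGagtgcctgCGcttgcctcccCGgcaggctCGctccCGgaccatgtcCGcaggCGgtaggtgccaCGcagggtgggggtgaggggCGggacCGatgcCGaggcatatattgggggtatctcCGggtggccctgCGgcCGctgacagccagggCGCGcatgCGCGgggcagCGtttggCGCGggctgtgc
Tet2: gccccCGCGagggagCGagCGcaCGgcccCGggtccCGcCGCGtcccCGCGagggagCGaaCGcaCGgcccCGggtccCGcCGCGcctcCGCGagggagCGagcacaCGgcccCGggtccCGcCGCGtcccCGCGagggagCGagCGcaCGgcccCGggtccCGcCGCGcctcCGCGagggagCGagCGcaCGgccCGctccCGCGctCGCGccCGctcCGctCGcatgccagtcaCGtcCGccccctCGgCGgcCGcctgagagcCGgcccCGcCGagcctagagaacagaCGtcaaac
Tet1: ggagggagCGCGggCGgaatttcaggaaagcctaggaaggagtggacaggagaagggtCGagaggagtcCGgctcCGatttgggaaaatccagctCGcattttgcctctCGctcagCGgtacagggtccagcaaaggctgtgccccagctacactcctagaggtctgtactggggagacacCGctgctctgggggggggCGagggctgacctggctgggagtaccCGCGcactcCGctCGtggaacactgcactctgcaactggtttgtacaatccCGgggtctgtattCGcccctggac
Sycp1: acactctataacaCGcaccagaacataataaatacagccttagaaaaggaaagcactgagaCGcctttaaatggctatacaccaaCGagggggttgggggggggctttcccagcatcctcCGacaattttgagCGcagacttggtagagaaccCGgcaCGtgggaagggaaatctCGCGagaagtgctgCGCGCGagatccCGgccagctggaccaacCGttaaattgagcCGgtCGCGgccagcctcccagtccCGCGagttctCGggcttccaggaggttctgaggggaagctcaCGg

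A window was found for 9 of the 10 genes. Where RefSeq gives several starts, the window with the most CpG was taken, and which start the PGCs use was not measured. The median over the 9 genes was 30 CpG, against 8 over the 27025 genes with a window. *Tet2* had more CpG than 99.8% of those genes and *Dnmt3a*, with 47, more than 98.3%. *Dnmt3l* was the poorest of the 9 with 6 CpG, and *Tet1* came next with 17. *Dnmt3b* held 30, *Tdg* 26 and *Tet3* 22. All but *Dnmt3l* held more CpG than the median gene.

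**Figure D1:**
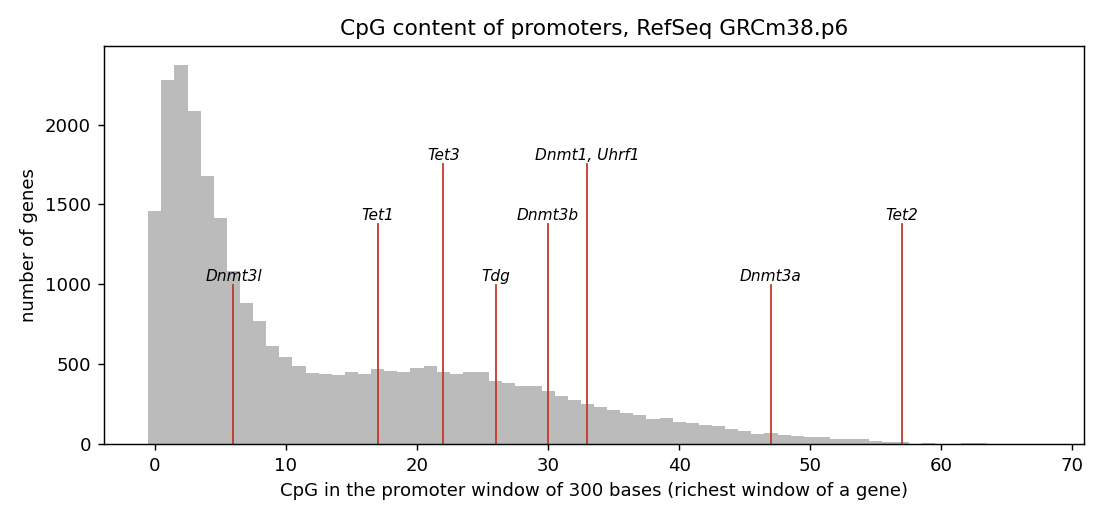
CpG count per 300-base RefSeq promoter window (x axis) against the number of all 27025 genes with that count (y axis), with the 9 genes marked at the count of their richest window. *Tet2* stands at the far right with 57 and *Dnmt3l* at the left with 6, on either side of the group median of 30.

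Matches to 3 motifs were counted in any window of a gene, on both strands. The E2F core GCGGGAA, the letters of a site used by S phase regulators, was found in *Uhrf1* alone of the 9 genes, and 5.3% of all genes hold it. That match lies 48 bases before the first of its 2 annotated starts, not in the window printed above, and it does not overlap the GC box match of the same window. The E-box CACGTG was found in *Dnmt3a*, *Dnmt3l* and *Tdg*, and 8.1% of all genes hold it. The GC box GGGCGG, which can overlap the E2F core, was found in 8 of the 9 genes, all but *Tdg*, against 38.2% of all genes. A match is a run of letters, not a bound site.

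The genotype label was checked on *Fancg* itself. Its log2 signal was 6.38, 6.65 and 6.87 in the samples labelled *Fancg*-/-, against 6.07, 5.95 and 6.37 in WT samples. The labelled samples were thus all above WT, with a mean difference of 0.51 (limma standard error 0.16, adjusted p = 0.275). The label is not borne out by this row. The sources used here do not say where the probes lie relative to the interrupted part of the gene. Array medians ran between 4.68 and 4.75, and pairwise correlations between 0.989 and 0.994. The germ cell markers *Ddx4* (10.26 in labelled *Fancg*-/- and 10.27 in WT samples) and *Dazl* (11.68 in labelled *Fancg*-/- and 11.78 in WT samples) were far above the medians in both groups. Both are from a list of 12 PGC markers whose mean was higher in labelled *Fancg*-/- samples, as given further below.

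None of the 10 genes was called after Benjamini-Hochberg adjustment over all named genes in limma, nor was any other gene (0% called). At an unadjusted limma p under 0.05, *Uhrf1* and *Tet2* were lower in labelled *Fancg*-/- PGCs and no gene of the 10 was higher. Over all named genes 12.4% passed that threshold, 6.23% higher and 6.17% lower, beside which 2 of 10 is a small count. In 3 of the 10 genes, *Uhrf1*, *Tet2* and *Tet1*, every labelled *Fancg*-/- sample was below every WT sample, against 8.45% of all named genes, and 17.9% in either direction. None had every labelled *Fancg*-/- sample above WT, against 9.45% of all. The median log2 difference of the 10 genes was -0.12, with 4 above 0 and 6 below 0, while that of all named genes was 0.01. With the methods' equal-variance test per gene, before adjustment 1270 genes were higher and 1138 were lower at the same threshold, and 0 remained after it.

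**Figure D2:**
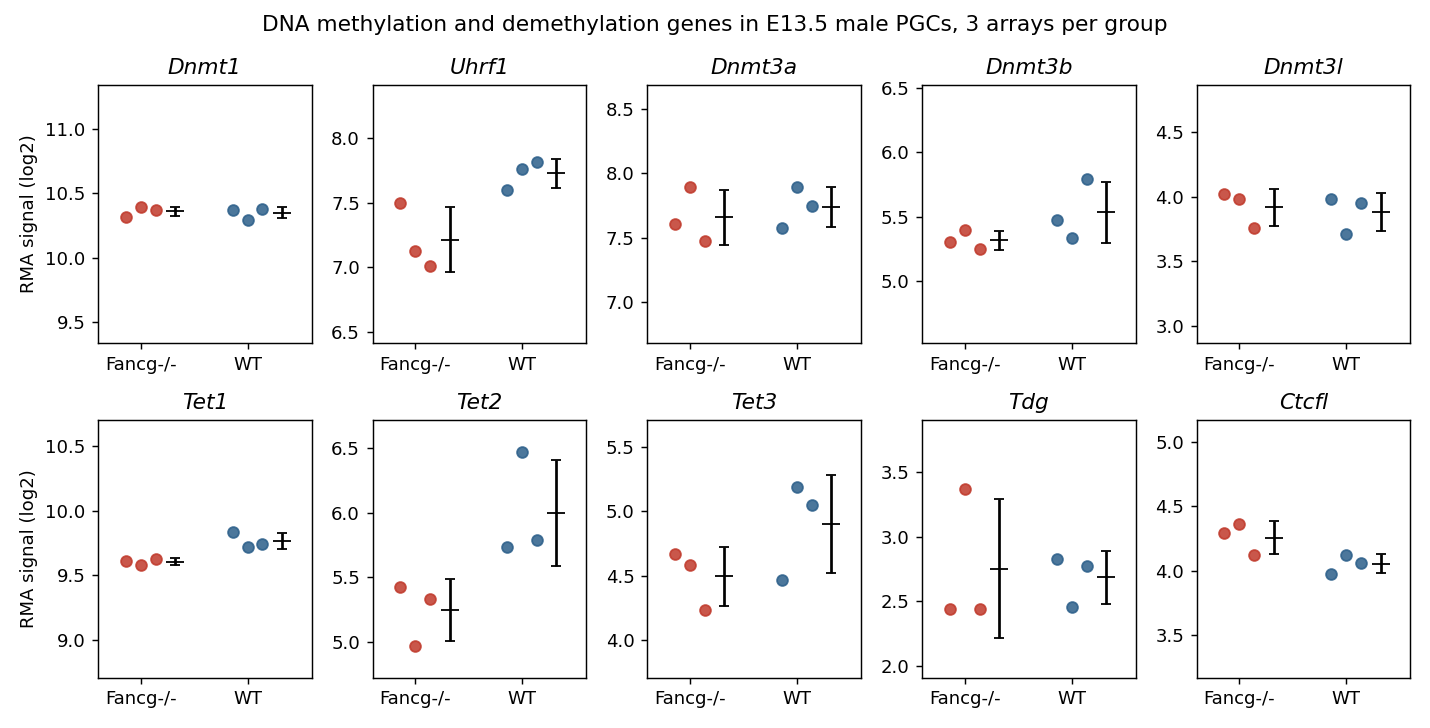
Log2 signal (y axis) of each of the 10 genes in the 3 labelled *Fancg*-/- samples (left) and the 3 WT samples (right) of each panel, with the group mean and SD as a bar beside the points. The groups are apart for *Uhrf1*, *Tet2* and *Tet1* and overlap for the other 7 genes.

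Among the genes of maintenance methylation, *Uhrf1* differed between the groups and *Dnmt1* hardly did. *Uhrf1*, whose protein recognises hemimethylated CpG, had log2 signals of 7.50, 7.13 and 7.01 in labelled *Fancg*-/- samples, against 7.60, 7.77 and 7.82 in WT samples. All labelled samples lay below all WT samples, although the closest pair, both of replicate number 1, was only 0.11 apart. The mean was 7.21 ± 0.25 in labelled *Fancg*-/- and 7.73 ± 0.11 in WT samples (SD, n = 3 each), a log2 difference of -0.52 (standard error 0.14, 95% interval -0.84 to -0.20), or 1.43-fold lower in labelled *Fancg*-/- PGCs. The limma p was 0.00604 before and 0.215 after adjustment, and *Uhrf1* ranked 668th of all named genes by p. The exact two-sided permutation test gave 0.1, the smallest value that 3 samples against 3 allow.

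*Dnmt1*, the maintenance methyltransferase, had log2 signals of 10.32, 10.39 and 10.37 in labelled *Fancg*-/- samples, against 10.37, 10.29 and 10.38 in WT samples. The groups overlapped throughout. The log2 difference was 0.01 with a standard error of 0.08, and its 95% interval of -0.18 to 0.20 does not reach the -0.52 of *Uhrf1*. The adjusted limma p was 0.968. The difference between *Uhrf1* and *Dnmt1* was not itself tested.

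The 12 other genes of maintenance methylation that were listed differed little. None passed the unadjusted threshold in either direction, against 12.4% of all named genes, and their median log2 difference was -0.04. Those with the smallest p were *Hells* (-0.14), a chromatin remodeler needed for methylation of repeats, *Lig1* (-0.11), the replication ligase whose methylated tail is bound by UHRF1, *Dppa3* (-0.11), which displaces UHRF1 from chromatin, and *Zfp57* (-0.14), which protects imprints.

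Of the de novo enzymes, none separated the genotypes. *Dnmt3a* had log2 signals of 7.60, 7.89 and 7.47 in labelled *Fancg*-/- samples, against 7.57, 7.89 and 7.75 in WT samples, a log2 difference of -0.08 (standard error 0.14, 95% interval -0.39 to 0.23, adjusted p = 0.863). *Dnmt3b* had 5.31, 5.39 and 5.25 in labelled *Fancg*-/- samples, against 5.48, 5.33 and 5.79 in WT samples. Here 2 of the WT samples lay above all labelled *Fancg*-/- samples and the other lay among them, and the difference was -0.22 (standard error 0.13, 95% interval -0.52 to 0.08, adjusted p = 0.546). It was -0.32 without WT replicate 2 and -0.088 without WT replicate 3. *Dnmt3l*, whose product lacks catalytic activity and stimulates DNMT3A, was dim, with row means below the array medians: 4.02, 3.98 and 3.76 in labelled *Fancg*-/- samples and 3.98, 3.72 and 3.95 in WT samples. Its difference was 0.03 (standard error 0.12, 95% interval -0.23 to 0.30).

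Genes that steer de novo methylation, such as the PIWI pathway and histone H3 lysine methyltransferases, were measured for 14 of the 15 listed, with *Dnmt3c* not found among the named rows. At the unadjusted threshold 2 were lower (14.3%, against 6.17% of all named genes) and 0 higher, against 6.23%. The median was -0.05. The count of 2 was 1 without labelled *Fancg*-/- replicate 3 or without WT replicate 2. It was also 1 with array weights, equal array medians or a replicate block, and 0 with the somatic covariate described below. *Nsd1*, a histone H3 lysine 36 methyltransferase, had log2 signals of 7.86, 7.63 and 7.43 in labelled *Fancg*-/- samples, against 7.98, 8.45 and 8.16 in WT samples, a difference of -0.56 (standard error 0.15, limma adjusted p = 0.227). The groups did not overlap. The other was *Hsf2bp* (-0.24), known for meiotic recombination rather than for methylation. *Zfp42* (0.34) and *Ehmt2* (-0.22) followed by p without passing. Among 10 methyl-CpG readers 0 were higher and 1 (10%) was lower, near the 6.17% of all named genes, and the median was 0.08. The 1 was *Mbd6* (-0.32), whose domain is not known to bind methylated DNA. *Mbd6* did not pass with the methods' test or the somatic covariate, nor without labelled *Fancg*-/- replicate 2, WT replicate 2 or WT replicate 3.

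The Tet genes all had differences below 0, of unequal size. *Tet2* had log2 signals of 5.43, 4.97 and 5.33 in labelled *Fancg*-/- samples, against 5.73, 6.47 and 5.79 in WT samples. No sample crossed over, the gap between the groups was 0.30, and WT replicate 2 stood well above the other WT samples. The mean was 5.24 ± 0.24 in labelled *Fancg*-/- and 5.998 ± 0.41 in WT samples (SD, n = 3 each), a log2 difference of -0.75 (standard error 0.21, 95% interval -1.25 to -0.26), or 1.69-fold lower in labelled *Fancg*-/- PGCs. This was the lowest difference among the 10 genes. The limma p was 0.00786 before and 0.233 after adjustment, the rank by p was 804th, and the exact two-sided permutation p was 0.1.

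*Tet1*, which in PGCs is tied to demethylation of imprints and meiotic promoters, had log2 signals of 9.62, 9.58 and 9.63 in labelled *Fancg*-/- samples, against 9.84, 9.72 and 9.74 in WT samples. The groups were apart by 0.092 and each was tight. The difference was -0.16 (standard error 0.08, 95% interval -0.35 to 0.03), with a limma p of 0.0926 before and 0.494 after adjustment, and an exact permutation p of 0.1. The methods' test, which does not borrow spread from other genes, gave 0.0141 before and 0.407 after adjustment for this tight row.

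*Tet3*, the main oxidase of the zygote, was dim, at 4.67, 4.58 and 4.23 in labelled *Fancg*-/- samples and 4.47, 5.19 and 5.05 in WT samples. WT replicate 1 lay among the labelled *Fancg*-/- samples and the other WT samples were above them, with a difference of -0.40 (standard error 0.20, 95% interval -0.87 to 0.06, adjusted p = 0.470). It was -0.62 without WT replicate 1 and -0.26 without WT replicate 2. *Tdg* lay in the lowest 25% of rows, at 2.45, 3.37 and 2.45 in labelled *Fancg*-/- samples and 2.83, 2.46 and 2.77 in WT samples. Its difference of 0.07 rested on replicate 2 of the labelled group, without which it was -0.24. Its 95% interval of -0.51 to 0.65 was the widest of the 10 genes, so at this signal a difference was not detectable.

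**Figure D3:**
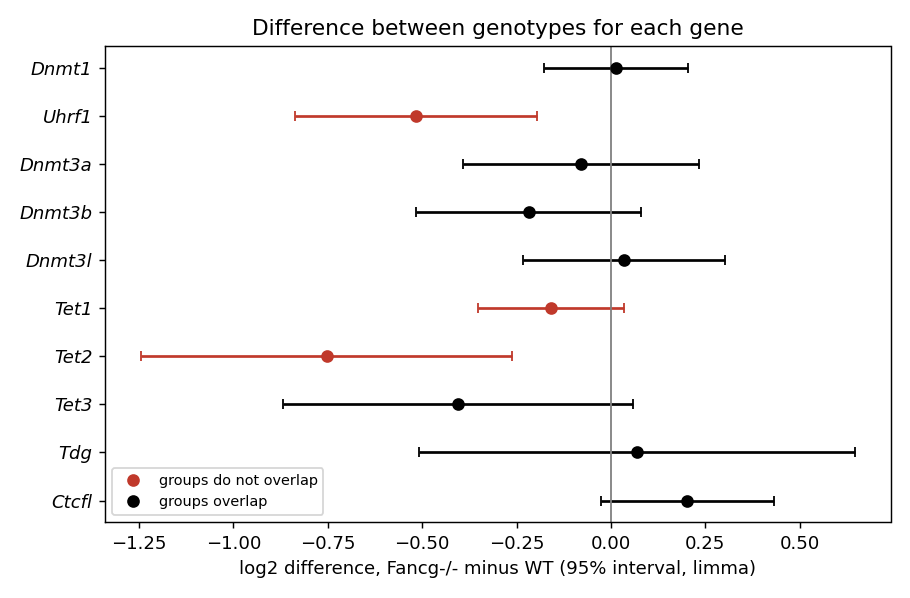
Log2 difference, labelled *Fancg*-/- minus WT (x axis), with 95% limma intervals for each of the 10 genes (y axis), in red where the groups did not overlap. The intervals of *Uhrf1* (-0.84 to -0.20) and *Tet2* (-1.25 to -0.26) lie below 0 and the other 8 include it.

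Partners of the Tet enzymes and genes that supply their cofactor were measured for all 14 listed. Of these, 2 were higher (14.3%, against 6.23% of all named genes) and 0 lower, with a median of -0.01. The count of 2 was 1 without any single one of 4 samples, labelled *Fancg*-/- replicates 2 and 3 and WT replicates 2 and 3. It was also 1 with a replicate block, and 0 with the somatic covariate described below. The 2 were *Nanog* (0.40), a pluripotency factor that binds TET1, and *Prdm14* (0.34), a PGC specifier that represses de novo methyltransferases. *D2hgdh* (-0.24) and *Idh3a* (-0.18), metabolic enzymes, followed without passing. Of the base excision list 4 of 15 (26.7%) were higher, against 6.23% of all named genes, and 0 lower, with a median of 0.07. The count of 4 was not stable. It was 1 without labelled *Fancg*-/- replicate 2 or without replicate 3, and 2 without WT replicate 2 or with the methods' test. With the somatic covariate described below, which follows genotype closely (r = -0.92), the count was 0. *Ung*, the uracil glycosylase, had log2 signals of 8.77, 8.94 and 8.95 in labelled *Fancg*-/- samples, against 8.61, 8.55 and 8.11 in WT samples, a difference of 0.46. The others were *Gadd45a* (0.49), *Gadd45b* (0.51) and *Parp1* (0.26). *Gadd45a* and *Gadd45b* are also known targets of DNA damage signaling, and the product of *Parp1* acts in DNA repair at large. None of the 4 higher genes had an adjusted p under 0.05.

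*Ctcfl*, expressed mainly in the male germline, was dim as well. Its log2 signals were 4.29, 4.36 and 4.12 in labelled *Fancg*-/- samples, against 3.98, 4.12 and 4.06 in WT samples. Labelled *Fancg*-/- samples were the higher ones, with an overlap of only 0.0051 between replicate 3 of that group and WT replicate 2. The difference was 0.20 (standard error 0.10, 95% interval -0.03 to 0.43, adjusted p = 0.464), the highest of the 10 genes. In the list of CTCF and the cohesin complex, which CTCF stops at insulators, 3 of 10 were lower, against 6.17% of all named genes, 0 were higher, and the median was -0.08. *Ctcf* itself, named here after its value was seen, was at 0.014 and did not pass, and the 3 were cohesin subunits or their loader. None passed with the somatic covariate, which can hardly be told apart from genotype. *Stag2*, a cohesin subunit, was at 6.48, 6.36 and 6.17 in labelled *Fancg*-/- samples and 6.67, 6.94 and 6.82 in WT samples, without overlap, a difference of -0.47 (standard error 0.12, limma adjusted p = 0.197). The others were the cohesin loader *Nipbl* (-0.29) and the subunit *Stag1* (-0.21), and *Smc3* (-0.11) did not pass.

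Germline genes whose promoters are methylated in somatic cells are the best known targets of this pathway, and 20 were listed. At the unadjusted threshold 6 (30%) were lower, against 6.17% of all named genes, and 0 higher. In 9 every labelled *Fancg*-/- sample was below every WT sample, against 8.45% of all, and the median was -0.17. The centred list mean overlapped, running between -0.17 and 0.019 in labelled *Fancg*-/- samples and between -0.078 and 0.18 in WT samples. *Sycp1*, of the synaptonemal complex, had log2 signals of 6.98, 6.83 and 6.60 in labelled *Fancg*-/- samples, against 7.32, 7.78 and 7.38 in WT samples, a difference of -0.69 (standard error 0.15, limma adjusted p = 0.174). *Tdrd1*, a piRNA pathway protein, was at 4.59, 4.18 and 4.33 in labelled *Fancg*-/- samples and 4.89, 5.07 and 4.82 in WT samples, a difference of -0.56. *Stk31* (-0.53) and the meiotic gene *Tex11* (-0.69) passed as well, while *Dazl* (-0.10) and *Ddx4* (-0.0041) did not. *Brdt* (-0.80) passed in limma too, although its groups overlapped. With the methods' test neither *Tex11* (unadjusted p = 0.0586) nor *Brdt* (unadjusted p = 0.0866) passed, and *Dazl* did (unadjusted p = 0.0218). The count of 6 under the other alternatives is not given here. With the somatic covariate described below, the count of lower genes over all named genes fell from 1470 to 575. That covariate can hardly be told apart from genotype. The promoters of these genes had a median of 21 CpG over the 19 with a window, and the E-box was found in 12 of them. No list had a gene with an adjusted p under 0.05.

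**Figure D4:**
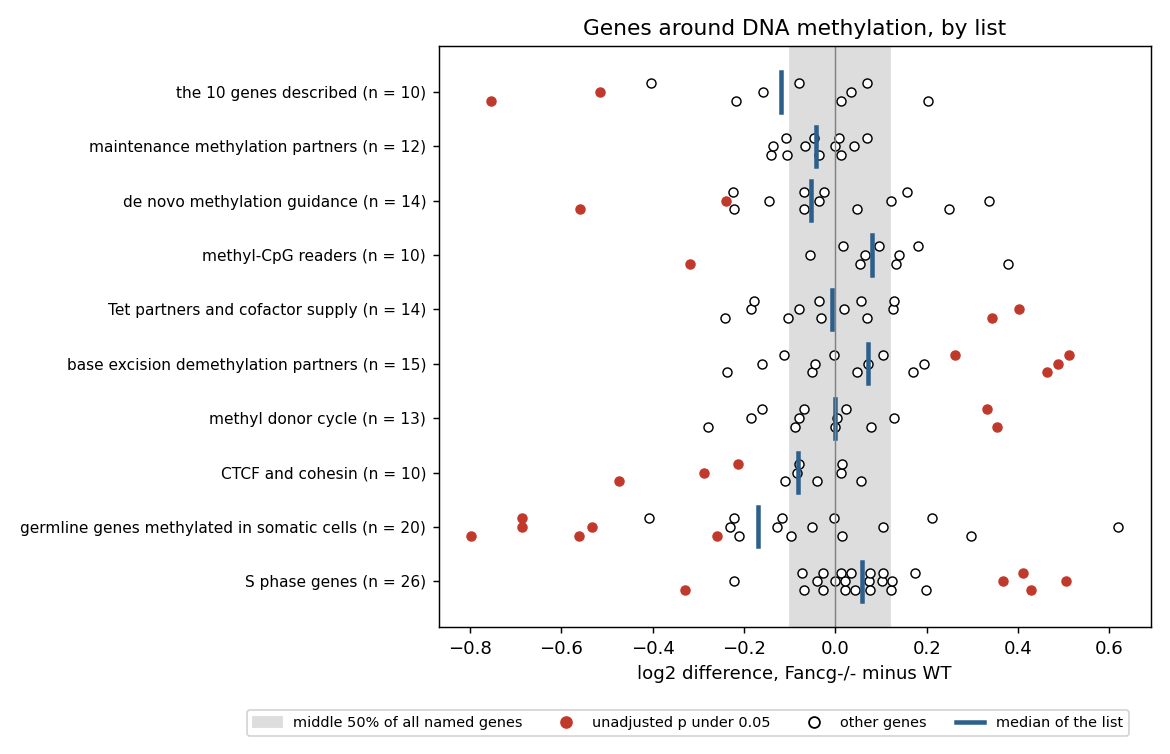
Log2 difference, labelled *Fancg*-/- minus WT (x axis), of every measured gene of each list (y axis), with filled points at an unadjusted limma p under 0.05, bars at list medians and a grey band for the middle 50% of all named genes (-0.10 to 0.12). The filled points lie to the right in the base excision list (4 of 15) against 6.23% of all named genes, a count of 1 without labelled *Fancg*-/- replicate 2 or 3, and to the left in the germline list (6 of 20, against 6.17%). How the germline count moves when a sample is left out is not given.

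*Uhrf1* is transcribed mostly in S phase, so 26 S phase genes were set beside it. Here 4 were higher (15.4%, against 6.23% of all named genes), 1 was lower (3.85%, against 6.17%) and 21 did not pass. The median was 0.06, against 0.01 for all named genes. Whether S phase has a part in the difference of *Uhrf1* was not tested. *Ccne1* (0.50, limma adjusted p = 0.153), *Cdt1* (0.41) and *Rrm2* (0.43) were higher, and *Pole* (-0.33), a replicative polymerase, was lower. The mean of the list, after centring each gene on its mean over all arrays, ran between -0.014 and 0.076 in labelled *Fancg*-/- samples and between -0.085 and 0.022 in WT samples, which overlap.

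Of the somatic marker lists, the fetal Leydig list was the one whose mean separated the groups. The counts here stand beside 6.17% lower and 6.23% higher over all named genes at the unadjusted threshold. Of the fetal Leydig cell markers 6 of 8 were lower and 0 higher, with a median of -1.20, and the centred list mean ran between -0.80 and -0.37 in labelled *Fancg*-/- samples and between 0.35 and 0.72 in WT samples. *Ren1*, of smallest p, had 4.13, 4.06 and 3.98 in labelled *Fancg*-/- samples, against 4.80, 4.87 and 4.80 in WT samples, and *Cyp11a1*, which opens steroid synthesis, had 4.37, 3.72 and 4.77 in labelled *Fancg*-/- samples, against 6.11, 6.60 and 6.88 in WT samples. Stromal markers were lower in 6 of 12 (50%) with a median of -0.26. Sertoli cell markers were lower in 1 of 13 (7.69%, near the share of all named genes) with a median of -0.37. Endothelial markers were higher in 5 of 11 (45.5%) with a median of 0.34. The list means of stromal, Sertoli, endothelial, macrophage and erythroid markers overlapped between the groups. PGC markers were higher in 3 of 12 (25%) and lower in 0, with a median of 0.12. The 3 were *Tfap2c* (0.56), *Nanos3* (0.44) and *Prdm14* (0.34). The PGC list mean did not overlap, running between 0.020 and 0.11 in labelled *Fancg*-/- samples and between -0.11 and -0.0076 in WT samples. Macrophage and erythroid markers had medians of 0.06 and 0.02. The centred erythroid mean varied widely within both groups, from -0.98 to 0.80 in labelled *Fancg*-/- samples and from -0.53 to 0.36 in WT samples.

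The mean of the Sertoli, Leydig, stromal and endothelial lists ran between -0.26 and -0.11 in labelled *Fancg*-/- samples and between 0.061 and 0.28 in WT samples, and its correlation with genotype over the 6 arrays was -0.92. The lists in it differed in direction, at -1.14 for Leydig, -0.33 for Sertoli, -0.26 for stromal and 0.28 for endothelial markers. The Leydig list thus weighed most. With this mean of lists as a covariate in the limma model, *Uhrf1* had a log2 difference of -0.31 (standard error 0.38, unadjusted p = 0.437). *Tet2* had -0.19 (standard error 0.55, unadjusted p = 0.739) and *Tet1* -0.24 (standard error 0.23, unadjusted p = 0.319). None of these passed. The difference of *Tet1* was larger in size than its -0.16 without the covariate, and those of *Uhrf1* and *Tet2* were smaller. Genotype and this mean can hardly be told apart in 6 such arrays, and the part of somatic RNA in these differences was not tested in any other way.

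**Figure D5:**
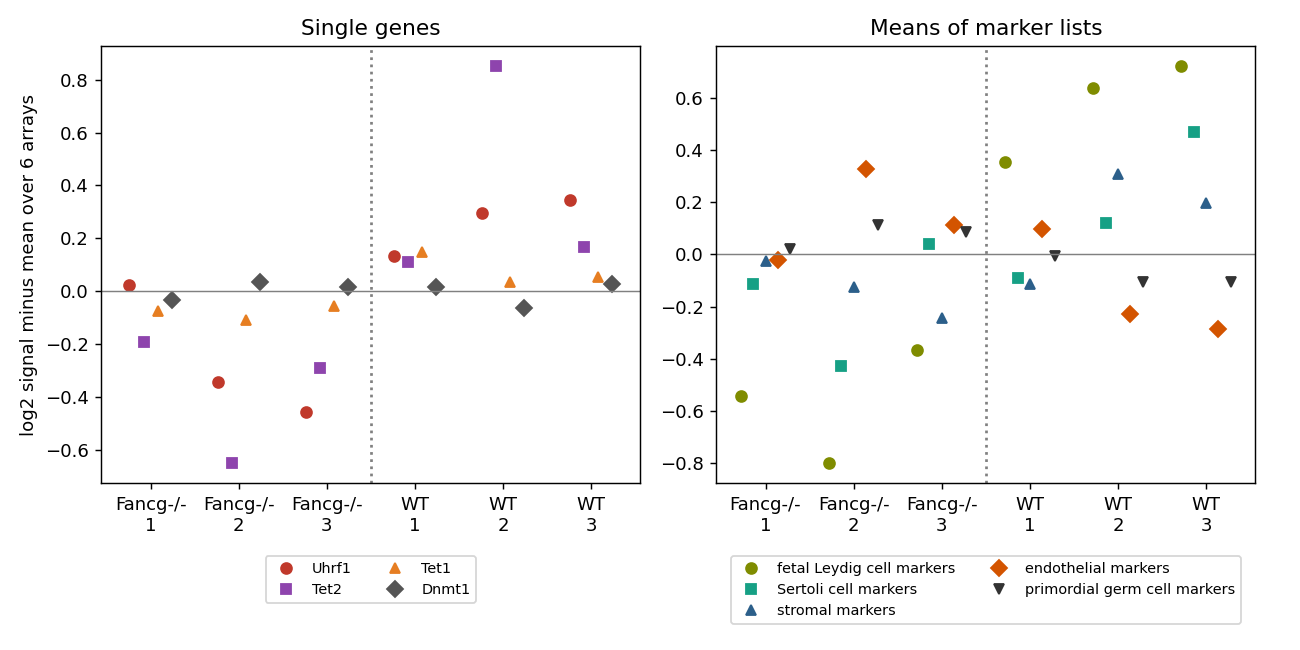
Left, log2 signal of *Uhrf1*, *Tet2*, *Tet1* and *Dnmt1* minus each gene's mean over the 6 arrays (y axis), by array (x axis, labelled *Fancg*-/- left of the dotted line, WT right); right, centred means of 5 marker lists on the same arrays. Leydig markers lie between -0.80 and -0.37 in labelled *Fancg*-/- arrays and between 0.35 and 0.72 in WT arrays.

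Across the 6 arrays the 10 genes did not vary as a block. Of their 45 pairs, 1 had a Pearson r above 0.8, *Uhrf1* with *Tet3* (0.82), and 1 had r below -0.8, *Tet1* with *Ctcfl* (-0.90). *Uhrf1* and *Tet2* had r = 0.79, and *Dnmt1* and *Tet2* -0.69. These are descriptions over 6 points that share the split by genotype. The centred mean of the 10 genes ran between -0.21 and -0.0076 in labelled *Fancg*-/- samples and between 0.012 and 0.14 in WT samples.

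Among 15470 annotated genes above the dim range, those most like *Uhrf1* over the 6 arrays were *H2ac21* (r = 0.997), *Snap47* (0.996), *Ctxn1* (0.994), *Hnrnph3* (0.990) and *Phf21a* (0.988), and 127 genes had r above 0.95. For *Tet2* they were *Ralgps1* (0.996), *Arid4a* (0.994), *Raet1e* (0.993), *Gucy1a1* (0.991) and *Pxt1* (0.991), with 71 above 0.95. For *Ctcfl* they were *Vwa3b* (0.999), *Itih3* (0.990), *Gosr2* (0.986), *Echs1* (0.985) and *Setd3* (0.980), with 30 above 0.95. With this many genes screened over 6 arrays, high values are common.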

How the data were processed

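PGCs were sorted by EGFP, and amplified RNA was hybridised to 1-colour arrays. The authors deposited RMA-normalized log2 signals, 1 row per Entrez gene; Partek is named in the submitters' processing notes, and the sources used here give no versions. No further normalization was applied, and with 1 value per gene, isoforms and single probes were not examined. Rows were named through RefSeq (GRCm38.p6, 23712 rows) and the platform annotation (23281 rows); 642 of 24479 rows had no name and were not tested. Samples were grouped by their titles.

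Differences were fitted with limma 3.58.1 (lmFit, eBayes; R 4.3.3), labelled *Fancg*-/- minus WT, with no block. P-values were adjusted by Benjamini-Hochberg over 23837 rows, with a threshold of 0.05. The fit was first tested on simulated arrays with 200 changed genes. Their noise was independent and the pass condition covered only changes larger than any among the 10 genes, so it does not bear on those. The number of arrays limits the precision, and p-values measure the spread between pools. The genes and lists were chosen with earlier results of these data known, and lists are described by counts and medians. Named were the 10 genes, and up to 4 genes of each list and up to 3 of each marker list by smallest p. The 5 genes most like *Uhrf1*, *Tet2* and *Ctcfl* were named as well. *Dazl* and *Ddx4* were named as markers, *Ctcf* for comparison and *Brdt* for its result with the methods' test, after their values were seen. Alternatives were the methods' test, a robust trended prior, array weights, 2 normalizations, 2 filters, all rows, a replicate block, a somatic covariate and leaving out each sample. Promoter sequences are RefSeq's. Single genes of the methyl donor cycle list are not reported here, and the list appears only in the plot of lists.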

Additional observations from a re-analysis of the deposited data

How the results depend on the processing

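*Uhrf1* was lower in labelled *Fancg*-/- PGCs under all 16 alternatives (log2 difference -0.66 to -0.31) and passed an unadjusted p under 0.05 in 15, all but the somatic covariate; *Tet2* was lower in 16 (-0.89 to -0.19) and passed in 14, not with the covariate nor with the methods' test (unadjusted p = 0.0523). No alternative brought either under an adjusted p of 0.05, the lowest being 0.132 and 0.152. Leaving out each sample gave -0.66 to -0.42 for *Uhrf1* and -0.89 to -0.52 for *Tet2*. Without labelled *Fancg*-/- replicate 3, *Ctcfl* passed (0.27, unadjusted p = 0.0313), so that the count of the 10 genes that were higher ran from 0 to 1. *Tet3* passed without WT replicate 1 (-0.62, unadjusted p = 0.00478) and with array weights (unadjusted p = 0.0384), and *Dnmt3b* without WT replicate 2 (-0.32, unadjusted p = 0.0432), while *Tet1* passed with the methods' test (unadjusted p = 0.0141) and a robust trended prior (unadjusted p = 0.0174), so that the count that were lower was 2 or 3, apart from 0 with the somatic covariate. Over all genes 0 to 3 were called when a sample was left out, the 3 (*DQ267100*, *Cntfr* and *Hsd3b1*) without WT replicate 1.

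With the somatic covariate 664 genes were higher and 575 lower at the unadjusted threshold, and 0 of the 10 genes were lower. The sign turned for *Dnmt1* (-0.023), *Dnmt3l* (-0.23), *Tet3* (0.14) and *Tdg* (-0.83). Of the others, *Tet1* (-0.24) and *Dnmt3a* (-0.14) differed more than without it, and *Uhrf1*, *Tet2*, *Dnmt3b* (-0.054) and *Ctcfl* (0.15) less. The cause was not tested. Leaving out single samples also turned the sign of small differences, with ranges of -0.013 to 0.034 for *Dnmt1*, -0.20 to 0.012 for *Dnmt3a*, -0.050 to 0.12 for *Dnmt3l* and -0.24 to 0.22 for *Tdg*. None of these passed.

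Samples with the same replicate number showed little shared deviation (correlations of -0.14, -0.11 and 0.03), although 1 replicate correlated best with its own number. With so few arrays per group, such correlations cannot decide whether the numbers pair samples, so pairing was neither shown nor excluded. With the replicate number as a block, *Uhrf1* kept -0.52 (unadjusted p = 0.0168) and *Tet2* -0.75 (0.0210), with 1193 genes higher, 1287 lower and 0 called. Of 432 list results, 50 moved. The filters on dim rows left out *Tdg* (25% of rows) and 4 of the 10 genes (50%). Dim signals limit *Dnmt3l*, *Tet3*, *Tdg* and *Ctcfl*.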
